A study of Rattus norvegicus with 18 samples.

Results

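The cultures described here are rat primary hepatocytes kept in 100 µM EMD, and the question is how these treated cells themselves changed between 24 h and 72 h of exposure. The members are the 6 arrays whose titles give this dose, 3 at 24 h and 3 at 72 h, out of 18 arrays in all, read over the 31042 probe sets that are not controls. According to the study's text EMD activates PPARα and PPARγ, both of them nuclear receptors. The other 12 arrays are 3 each of cultures in the solvent alone (0.1% DMSO) and in 30 µM EMD at the same 2 times, and they were used to show where the time course at 100 µM differed. All cells came from the liver of Wistar rats and were allowed 24 h to attach before the agents were added. Every group, the solvent group included, was kept in medium with insulin, hydrocortisone and gentamicin. Per the study's methods the hepatocytes of each animal received all treatments, with 3 biological replicates per time and dose. The EMD labels call the replicates biological, the DMSO labels only number them, and neither says that a number marks an animal. The p-values reflect how much the 3 arrays within a group varied, pooled over all groups and drawn toward the spread of all probe sets. That variation may be technical in part, and a group with a wider spread was not given its own estimate. The 24 h state is itself a treated state, and no untreated or freshly isolated cells were analysed here.

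PPARα is a nuclear receptor of the hepatocyte that binds fatty acids and, in rodents, switches on the uptake of fatty acids, their oxidation in mitochondria and peroxisomes and their omega-hydroxylation by CYP4 enzymes. PPARγ drives lipid storage in adipocytes. Primary rat hepatocytes on plastic are known to lose drug-metabolising cytochromes and other products of the differentiated liver with days in culture, while genes of the cytoskeleton and of wound repair rise, so a time course under an agonist holds both the exposure and the culture itself.

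The deposited values are log2 expression estimates made with RMA, and a change of 1 is a doubling. The median of the arrays lay between 5.042 and 5.11, and the values ran from 2.39 to 14.77. The 3 arrays of 100 µM at 24 h correlated with each other at 0.9917 to 0.9957 over all probe sets. At 72 h, replicates 2 and 3 correlated at 0.9957, while replicate 1 reached only 0.9875 and 0.9898 with them. Replicate 1 stood apart from its own group and had the largest deviation from its group mean of all 18 arrays (root mean square 0.219), and it was most like replicate 1 of 30 µM EMD at 72 h (0.9951). The 24 h arrays at 100 µM were likewise each most like the 30 µM array of the same number (0.996, 0.9962 and 0.9959). Why the 72 h array stood apart was not tested. Leaving out any other single array of the contrast lost the calls of 26 to 41 named genes between the times (limma). The number was lowest without 72 h replicate 1, where 16 named genes were no longer called. The rises among them were Nefl, Echs1 (adjusted p = 0.086), Acot8 (0.11), Nat2 (0.053), Akr1c14 (0.097), Pfkm (0.074), Casp8 (0.058), Car12 (0.058), Lox, Timp2 and Hadha, and the falls were Srxn1 (0.15), Bid (0.083), Npy (0.11), Clec4f (0.062) and Fcgr2b (0.075). Signs of RNA quality also moved with time: the difference between the 3' and 5' probe sets for β-actin was 1.289 ± 0.089 (SD, n = 3) at 24 h and 0.847 ± 0.006 at 72 h, against 1.315 ± 0.039 and 0.698 ± 0.054 in DMSO. The same difference was 0.215 ± 0.037 and 0.141 ± 0.024 for Gapdh and 1.51 ± 0.103 and 1.668 ± 0.113 for hexokinase. The part of RNA quality in the changes with time was not tested.

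Hepatocyte genes were high at both times. Albumin (Alb) read 14.67, 14.56 and 14.64 at 24 h, then 14.75, 14.76 and 14.77 at 72 h, the highest value of each of these arrays, where the normalization fixes the level, so it cannot show a change. The mean of the 14 measured hepatocyte markers was 11.9 to 11.99 per array at 24 h and 11.47 to 11.7 at 72 h, so the ranges did not overlap, and 6 of the 14 were called lower and 0 higher. Among the 6, the secreted glycoprotein Ahsg fell by 1.24 ± 0.36 on the log2 scale (limma, adjusted p = 0.033) and Serpina1, the α1-antitrypsin gene, by 1.16 ± 0.15 (adjusted p = 0.00011), with DMSO changes of 0.53 and -0.05 that did not pass the test. The Ahsg call was lost under 7 alternatives, with an adjusted p of 0.15 without 72 h replicate 2. Markers of other cell types had low mean levels. The 17 macrophage and Kupffer cell markers had array means of 5.05 to 5.32 at 24 h and 4.71 to 4.85 at 72 h (in DMSO 5.21 to 5.76 and 4.97 to 5.2), with 4 called lower and 0 higher, and the defining genes Adgre1 (2.86, 2.87 and 2.98 at 24 h) and Cd163 (3.88, 3.55 and 3.77) were near the bottom of the scale. Lysozyme (Lyz2) read 9.87, 9.38 and 9.35 at 24 h, then 8.4, 8.26 and 8.0 at 72 h, a fall of 1.31 ± 0.22 (adjusted p = 0.00092), and the Kupffer cell lectin Clec4f fell by 0.70 (adjusted p = 0.034). The 4 macrophage calls rest on most of the arrays, as 1 call was left without 24 h replicate 1, without 24 h replicate 3, or without 72 h replicate 2 or 3. Over all genes 7.55% were called higher and 6.63% lower.

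The 18 stellate cell and fibroblast markers had array means of 4.61 to 4.63 and 4.61 to 4.9, with 1 called higher, and Col1a1 stayed between 4.18 and 4.68 on all 6 arrays. That 1 gene was Lox, a collagen cross-linking enzyme (7.45, 6.97 and 6.9, then 9.8, 8.4 and 7.91), and no stellate marker was called without 72 h replicate 1. Epcam, an adhesion molecule of bile duct and progenitor cells, was the 1 of 13 cholangiocyte markers called higher, from 7.85, 8.6 and 8.32 to 9.11, 9.35 and 9.29. Endothelial (15 measured), lymphocyte (14) and red blood cell (4) markers stayed at array means of 5.24 or below, and of these markers Fcgr2b alone was called, as lower. In such bulk samples fewer cells of a type and less RNA per cell cannot be told apart, and the part of a changed cell mixture in the results was not tested.

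Between 24 h and 72 h at 100 µM, 3843 probe sets, 12.4% of those tested, differed by limma at an adjusted p below 0.05, of which 2102 were higher and 1741 lower at 72 h. A change of at least 2-fold was found for 467 of them, 291 up and 176 down. Read through 1 probe set per gene, 1073 of 14217 genes rose (7.55%) and 942 fell (6.63%). The genes that rose had a median level of 7.62 at 24 h and 8.3 at 72 h, those that fell went from 7.86 to 7.21, and the median over all genes was 6.44 at both times. The calls depend on the arrays and on the fit, with 5186 probe sets called when the replicate number was fitted as a block. Without 72 h replicate 1 there were 4453 probe sets, without 72 h replicate 2 there were 2285, and without 24 h replicate 3 there were 2468.

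Most of these changes had a counterpart in the solvent. In DMSO 6738 probe sets changed with the same span of culture (21.7%). Of the genes, 1686 were higher (11.9%) and 1693 lower (11.9%), more than at 100 µM in this fit. The gap depends on the setting, since with array weights 7076 probe sets were called in DMSO and 6849 at 100 µM. The 2 contrasts share no array. Of the 1073 genes that rose at 100 µM, 641 also rose in DMSO (59.7% of the first list and 38% of the 1686 genes of the second), and of the 942 that fell, 525 also fell in DMSO (55.7%, and 31% of 1693). Opposite calls were rare, with 5 genes up at 100 µM and down in DMSO and 7 the other way. Over all genes the 2 sets of log2 changes correlated at 0.638, a description across genes, which are not independent replicates. Among the larger changes, 149 genes rose at least 2-fold at 100 µM, of which 108 (72.5%) were called higher in DMSO too, and 125 fell at least 2-fold, of which 67 (53.6%) were called lower in DMSO. The time change itself differed between 100 µM and DMSO for 215 probe sets (0.693%), with 48 genes higher (0.338%) and 96 lower (0.675%) than in DMSO.

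**Figure D1:**
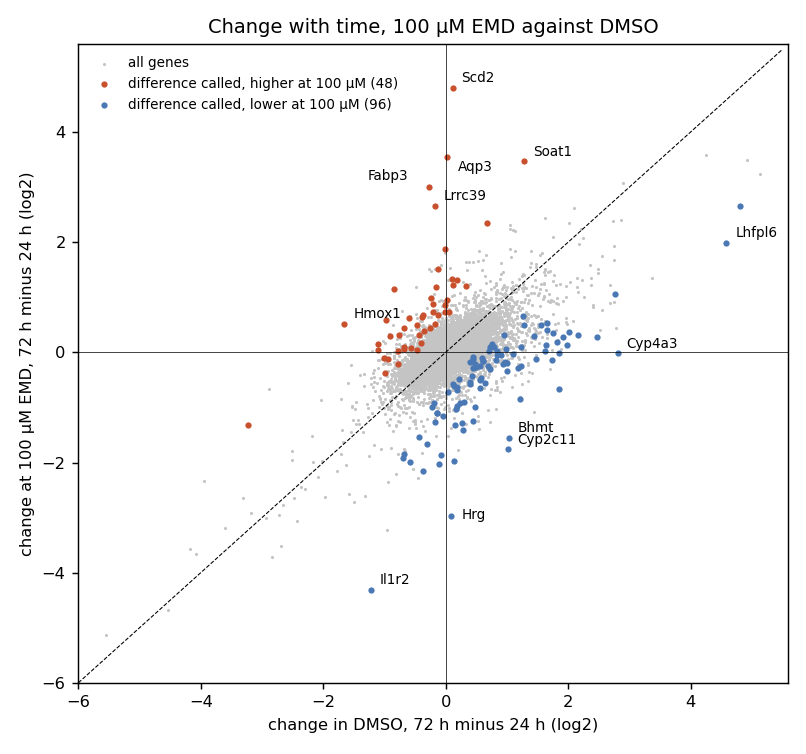
Each point is 1 of 14217 genes, with its log2 change from 24 h to 72 h in DMSO on the x axis and at 100 µM EMD on the y axis, the dashed line marking equal changes. Red points are the 48 genes whose change was called higher at 100 µM than in DMSO and blue points the 96 called lower and over all genes the changes correlate at 0.638.

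The 12 largest rises among called genes whose times did not overlap were led by Scd2. Scd2, a stearoyl-CoA desaturase that makes monounsaturated fatty acids, read 4.37, 3.88 and 4.31 at 24 h, then 10.13, 8.68 and 8.15 at 72 h. It rose by 4.8 ± 0.40 (SE) on the log2 scale (limma, adjusted p = 1.2e-06), and its 3 arrays at 72 h lay far above those at 24 h. In DMSO Scd2 stayed at 3.29, 3.13 and 3.73 at 72 h, against 3.39, 3.1 and 3.32 at 24 h. The 24 h level at 100 µM lay under the array median of 5.08 and was not shown to be above background, so that the size of the rise depends on how RMA treats low values. The same holds for the other genes named here with a level under or near that median at either time, among them Soat1, Il1r2 and Cyp3a2. The 3 other Scd2 probe sets changed by 2.07, 0.18 and 0.02, so the size of this rise differs between probe sets. Aqp3, a channel for water and glycerol, read 4.53, 6.31 and 5.64 and then 8.85, 8.98 and 9.3, a rise of 3.55 ± 0.41 (adjusted p = 3.2e-05), with 4.13 to 4.67 over all the DMSO arrays. The 24 h arrays were spread over a wide range and the 72 h arrays were close together, with no overlap. Soat1, the enzyme that esterifies cholesterol for storage, read 4.49, 4.71 and 4.66 and then 7.28, 8.52 and 8.48, a rise of 3.47 ± 0.33 (adjusted p = 3.6e-06). Its second probe set rose by 2.95, and replicate 1 was the lowest of the 72 h arrays. In DMSO Soat1 rose by 1.28 (adjusted p = 0.011).

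Fabp3, a cytosolic fatty acid binding protein best known from heart muscle, read 7.16, 7.37 and 6.99 at 24 h, then 11.16, 9.53 and 9.85 at 72 h, a rise of 3.0 ± 0.31 (8.01-fold, adjusted p = 8.8e-06). In DMSO it stayed low, at 4.89, 5.08 and 5.08 and then 4.89, 4.84 and 4.51. Cd36, the fatty acid translocase of the plasma membrane, went from 9.35, 9.71 and 10.8 to 12.88, 12.29 and 12.67, a rise of 2.66 ± 0.33 (6.31-fold, adjusted p = 5.2e-05). Here DMSO behaved differently, since Cd36 there started much lower, at 5.63, 5.09 and 4.51, and reached 9.77, 9.95 and 9.91, a rise of 4.8 (adjusted p = 9.5e-08). The 72 h arrays at 100 µM were nevertheless above the 72 h DMSO arrays without overlap. Slc25a4, the ADP/ATP carrier of mitochondria in muscle, rose by 3.08 ± 0.31 (8.13, 8.8 and 9.61, then 12.13, 11.69 and 11.97) and by 2.9 in DMSO. Pdia4, a disulfide isomerase of the endoplasmic reticulum, rose by 2.44 ± 0.34 (9.34, 9.07 and 9.25, then 10.51, 12.47 and 11.99), and by 1.63 in DMSO.

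The neuronal and cytoskeletal genes Map2, Nefl and Tmsb15b2 were also among the largest rises. Map2, a microtubule-associated protein, read 3.42, 3.36 and 3.38 at 24 h, then 8.43, 6.06 and 5.37 at 72 h (3.24 ± 0.67, adjusted p = 0.0045), and its rise in DMSO was 5.14. Nefl, a neurofilament subunit, went from 5.35, 3.91 and 4.87 to 10.18, 7.62 and 7.1 (3.59 ± 0.90, adjusted p = 0.014), and rose by 4.26 in DMSO. In both genes 72 h replicate 1 was the highest array, and Nefl was no longer called without it (adjusted p = 0.056) or without 24 h replicate 2 (0.062). The surface glycoprotein Cd24 rose by 3.5 ± 0.35 and by 4.92 in DMSO. Tmsb15b2, an actin-binding thymosin, rose by 2.61 ± 0.33, against 2.1 in DMSO. Lrrc39, a leucine-rich repeat protein known from muscle, read 3.67, 3.93 and 3.64 and then 5.87, 6.63 and 6.74, a rise of 2.66 ± 0.29 that was not seen in DMSO (-0.18, adjusted p = 0.7).

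**Figure D2:**
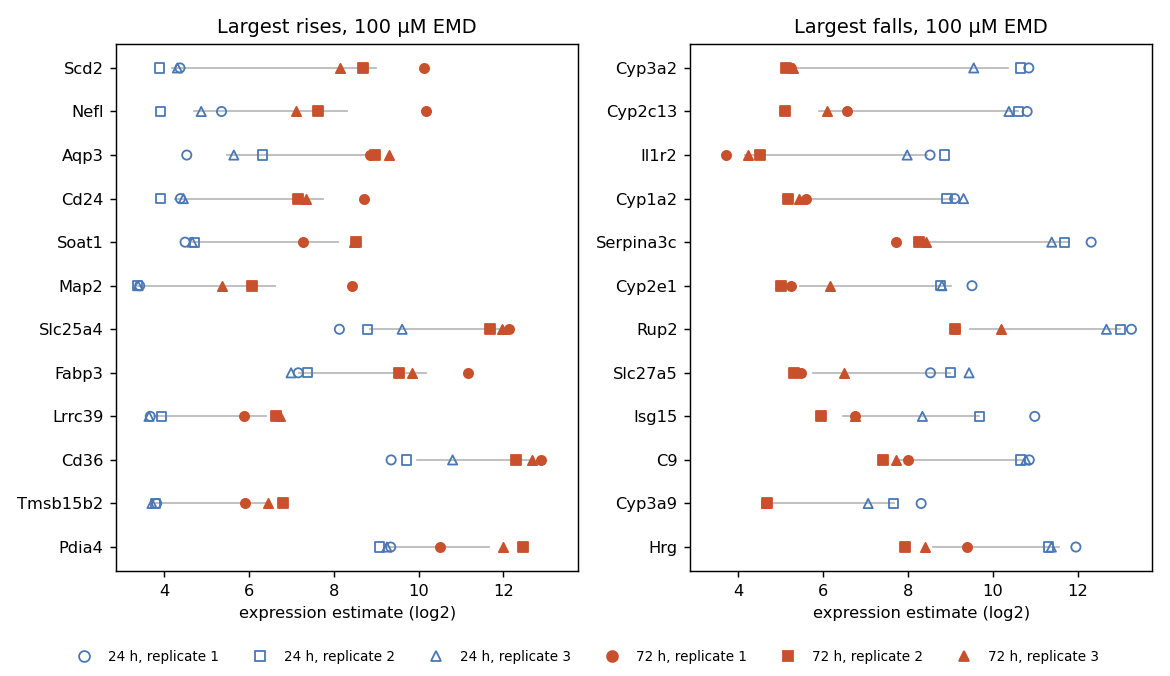
The log2 RMA value on each of the 6 arrays at 100 µM EMD for the 12 genes with the largest rise and the 12 with the largest fall among called genes whose times did not overlap, with open blue markers for 24 h, filled red markers for 72 h, marker shape for the replicate number and a grey line joining the means. The spread at 72 h is wide where replicate 1 stands away from the others, as in Map2 and Nefl.

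Of the 12 largest falls 5 were in hepatic cytochromes P450. Cyp3a2, a steroid and drug oxidase of the male rat liver, read 10.85, 10.65 and 9.55 at 24 h, then 5.25, 5.12 and 5.28 at 72 h, and fell by 5.13 ± 0.29 on the log2 scale (limma, adjusted p = 2.8e-08). The 72 h arrays were tightly grouped and close to the array median of 5.08, so they lay in the middle of all probe sets on the array. Cyp2c13 fell by 4.69 ± 0.35 (10.81, 10.61 and 10.38, then 6.55, 5.11 and 6.08), Cyp1a2, which oxidises caffeine, by 3.72 ± 0.52 (9.1, 8.92 and 9.31, then 5.6, 5.16 and 5.43), and the ethanol oxidase Cyp2e1 by 3.56 ± 0.45 (9.51, 8.77 and 8.8, then 5.23, 5.0 and 6.15). These cytochromes fell in DMSO too, with log2 changes of -5.55, -4.54, -2.84 and -4.18, and their time change was not called different from DMSO (adjusted p = 0.76, 0.95, 0.71 and 0.78). Cyp3a9 fell by 3.01 ± 0.25 and by 2.93 in DMSO. Of the 25 measured genes of the Cyp1, Cyp2 and Cyp3 families 15 fell and 0 rose, with a median change of -1.06, against 12 falls, 3 rises and a median of -0.53 in DMSO. The count of 15 lay between 14 and 17 under every alternative. Of all genes 6.63% fell at 100 µM and 11.9% in DMSO. The difference from DMSO was called for 1 of the 25 as higher and for 1 as lower. Several of these genes have near-identical copies, so which copy a probe set read is uncertain.

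The sequences before the start sites of some of these genes are printed to show the region upstream of strongly falling and rising genes. They are the 250 bases before the start site in the RefSeq annotation of GRCr8, written 5′ to 3′ on the strand of the gene, and capitals mark matches to AGGTCA (the core letters that nuclear receptors recognise), to the letters TATAAA, to the letters CCAAT or to the letters GGGCGG on either strand. Cyp3a2 (chr12:14343858-14344107, minus strand) holds AGGTCA 150 bases before the start. Cyp1a2 (chr8:66978150-66978399, minus strand) holds it on the opposite strand at 77 bases and TATAAA at 39. Cyp2e1 (chr1:205269717-205269966, plus strand) holds AGGTCA at 200 bases, TATAAA at 49 and CCAAT on the opposite strand at 86. Among the rises, Scd2 (chr1:253118127-253118376, plus strand) holds CCAAT at 97 and 54 bases, and Aqp3 (chr5:61040684-61040933, minus strand) holds TATAAA at 38 and GGGCGG at 67 and, on the opposite strand, at 101. A match of letters is a description and not a binding site.
Cyp3a2: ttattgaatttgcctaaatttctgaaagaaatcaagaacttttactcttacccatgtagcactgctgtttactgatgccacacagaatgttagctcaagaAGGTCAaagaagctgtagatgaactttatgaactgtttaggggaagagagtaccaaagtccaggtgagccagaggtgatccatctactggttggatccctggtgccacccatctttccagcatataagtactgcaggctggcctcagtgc
Cyp1a2: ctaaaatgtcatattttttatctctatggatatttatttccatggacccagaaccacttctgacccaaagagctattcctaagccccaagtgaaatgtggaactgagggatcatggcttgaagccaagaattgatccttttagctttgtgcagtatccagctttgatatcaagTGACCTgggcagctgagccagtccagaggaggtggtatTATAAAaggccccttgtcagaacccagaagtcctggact
Cyp2e1: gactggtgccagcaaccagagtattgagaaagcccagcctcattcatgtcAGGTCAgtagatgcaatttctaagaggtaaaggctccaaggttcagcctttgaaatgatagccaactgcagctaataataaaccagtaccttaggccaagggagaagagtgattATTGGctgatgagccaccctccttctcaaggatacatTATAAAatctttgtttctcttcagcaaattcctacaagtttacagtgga
Scd2: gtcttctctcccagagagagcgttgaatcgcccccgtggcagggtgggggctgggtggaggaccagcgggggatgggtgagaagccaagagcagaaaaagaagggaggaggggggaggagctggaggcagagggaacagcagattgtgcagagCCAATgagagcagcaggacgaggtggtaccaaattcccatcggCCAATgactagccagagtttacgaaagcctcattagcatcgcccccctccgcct
Aqp3: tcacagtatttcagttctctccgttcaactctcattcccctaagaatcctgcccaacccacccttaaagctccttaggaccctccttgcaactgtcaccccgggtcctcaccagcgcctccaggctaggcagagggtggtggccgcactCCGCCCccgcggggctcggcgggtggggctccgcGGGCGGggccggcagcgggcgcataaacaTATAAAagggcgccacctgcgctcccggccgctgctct

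Of 14217 genes measured, 11700 had such a sequence. AGGTCA was found on either strand in 86 of 923 promoters of genes that rose (9.32%), in 82 of 780 of genes that fell (10.5%) and in 1324 of all 11700 (11.3%). A pair of AGGTCA in the same direction with 1 base between them (the arrangement known as DR1) was found in 4 of the 11700 and in 0 of the rising and 0 of the falling genes. TATAAA was found in 5.53% of rising, 8.08% of falling and 8.06% of all promoters, CCAAT in 41.1%, 36.3% and 35.1%, CACGTG in 9.21%, 9.87% and 7.85%, TGACTCA in 2.71%, 3.21% and 3.45%, and GGGCGG in 59.9%, 57.6% and 54.2%. No test was made of these shares.

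The other large falls included proteins made for the blood. C9, a pore-forming complement component, read 10.86, 10.65 and 10.78 at 24 h, then 7.99, 7.4 and 7.71 at 72 h, a fall of 3.06 ± 0.28 (adjusted p = 2.5e-06), and fell by 2.43 in DMSO. Serpina3c, an acute phase serpin with close paralogs, fell by 3.66 ± 0.32 and by 4.07 in DMSO, and Rup2 changed by -3.52 ± 0.31 and by -2.68 in DMSO. Some of these falls were not shared by the solvent in size. Hrg, the plasma histidine-rich glycoprotein, read 11.96, 11.31 and 11.38 and then 9.4, 7.93 and 8.41, a change of -2.97 ± 0.37 (7.83-fold lower, adjusted p = 5.8e-05), while DMSO read 12.97, 12.82 and 12.35 and then 12.44, 13.03 and 12.92. Il1r2, the decoy receptor for interleukin-1, read 8.52, 8.86 and 7.98 and then 3.71, 4.52 and 4.22, a fall of 4.31 ± 0.32 (adjusted p = 3.7e-07), while DMSO went from 9.09, 9.91 and 10.22 to 7.81, 8.63 and 9.1. At 72 h neither gene's arrays at 100 µM overlapped those in DMSO. Slc27a5, which activates bile acids and very long fatty acids, fell by 3.23 ± 0.51 (adjusted p = 0.00055), against -0.95 in DMSO (adjusted p = 0.2), but this difference did not pass the test (-2.27, adjusted p = 0.19).

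Most genes of PPARα action did not pass the test between the times, and several of them rose in DMSO. The list that the study drew up for this pathway has 14 measured genes, of which 5 rose and 1 fell, with a median change of 0.29, against 9 rises, 1 fall and a median of 0.75 in DMSO. Among all genes 7.55% rose at 100 µM and 11.9% in DMSO. The study shows these genes with their changes in these samples and does not state how they were picked, so the list is not independent evidence of a direction. Besides Fabp3 and Cd36, the rises were Acsl3, which activates long-chain fatty acids (9.62, 9.8 and 9.88, then 10.4, 10.48 and 10.39, a change of 0.66), Slc25a20, the carnitine-acylcarnitine carrier (10.39, 10.75 and 10.62, then 11.29, 11.16 and 11.13, a change of 0.60) and Hadha, of the mitochondrial trifunctional protein (0.29, adjusted p = 0.049). The peroxisomal oxidase Acox3 was the 1 fall (-0.47, adjusted p = 0.047). Hadha and Acox3 were each lost under 7 alternatives, for Hadha with 72 h replicate 1 left out (adjusted p = 0.15) and for Acox3 with 72 h replicate 2 left out (0.2) among them.

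The other 8 genes of the list did not pass the test. Ehhadh, the bifunctional enzyme of peroxisomal oxidation, read 12.77, 13.01 and 13.13 at 24 h, then 13.39, 12.77 and 13.17 at 72 h (0.14 ± 0.26, adjusted p = 0.79). In DMSO it read 6.45, 5.6 and 5.42 and then 7.3, 8.45 and 7.69, a rise of 1.99 (adjusted p = 6.8e-05). The carnitine palmitoyltransferase Cpt1a read 10.1, 10.65 and 10.73 and then 10.93, 10.79 and 10.83 (0.36, adjusted p = 0.3), with a rise of 1.75 in DMSO. Thus the time groups at 100 µM overlapped for Ehhadh and lay close together for Cpt1a. The liver fatty acid binding protein Fabp1 went from 13.04, 13.32 and 13.28 to 14.02, 13.35 and 13.61 (0.44, adjusted p = 0.16). Cpt1b changed by 0.29, Acsl1 by 0.18, Ucp2 and Cpt2 by 0.09 each and Fabp5 by -0.22, with adjusted p from 0.26 to 0.86.

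The CYP4 family, whose members hydroxylate fatty acids at the omega end, is known for its response to PPARα agonists in rodents. Cyp4a3 read 13.12, 13.35 and 13.26 at 24 h, then 13.4, 13.1 and 13.2 at 72 h (-0.01 ± 0.22, adjusted p = 0.98), while DMSO rose from 8.66, 8.76 and 8.6 to 10.68, 12.06 and 11.71 (2.81, adjusted p = 4e-07). At 72 h the DMSO arrays were still below every array at 100 µM. Of 9 measured CYP4 genes 0 rose and 1 fell at 100 µM, Cyp4f1 (-1.24 ± 0.18, adjusted p = 0.00027), against 4 rises and 0 falls in DMSO. Of 23 genes of mitochondrial β-oxidation and ketone formation 7 rose and 0 fell (median 0.28), against 16 and 0 in DMSO (0.58). The carnitine transporter Slc22a5 was the largest of these, from 8.32, 8.53 and 8.47 to 9.66, 9.42 and 9.35 (1.04 ± 0.10, adjusted p = 3.1e-06), and Echs1 rose by 0.63 and Crat by 0.55. The 7 calls became 4 without 72 h replicate 1 and 3 without 24 h replicate 1. These DMSO counts stand against the larger share of all genes called higher in DMSO (11.9% against 7.55%). Of 31 peroxisomal enzymes 3 rose (Nudt7 by 0.69, Idh1 by 0.55 and Acot8 by 0.55) and 2 fell, among them Dao (7.54, 6.91 and 7.7, then 6.92, 6.17 and 6.76), against 15 and 1 in DMSO, and of 13 peroxins, which build the organelle, Pex19, Pex3 and Pex2 rose by 0.74, 0.73 and 0.35. Without 72 h replicate 1, 4 of the peroxisomal enzymes fell, and 0 fell without 24 h replicate 1, 24 h replicate 3 or 72 h replicate 2. Without 24 h replicate 1 their rises numbered 1. The peroxin rises numbered 1 without 24 h replicate 1 or 3 or without 72 h replicate 2 or 3. By the test of the difference, the time change was called lower than in DMSO for 2 of the 9 CYP4 genes. The same was called for 2 of the 23 genes of β-oxidation and ketone formation and for 5 of the 31 peroxisomal enzymes.

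**Figure D3:**
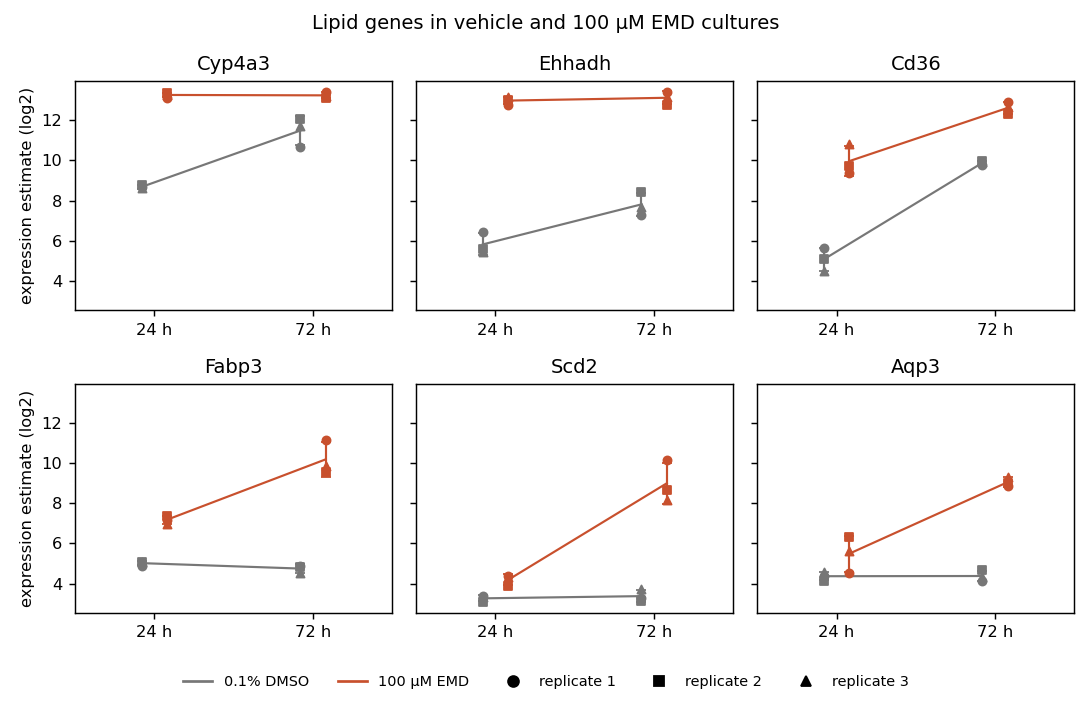
Log2 RMA values per array, with mean ± SD (n = 3), of Cyp4a3, Ehhadh, Cd36, Fabp3, Scd2 and Aqp3 at 24 h and 72 h in DMSO (grey) and 100 µM EMD (red). Cyp4a3 and Ehhadh changed by -0.01 and 0.14 with time at 100 µM, which did not pass the test, and rise in DMSO, Cd36 rises in both, and Fabp3, Scd2 and Aqp3 rise at 100 µM while their changes in DMSO, -0.27, 0.11 and 0.02, did not pass the test.

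Of 26 genes of fatty acid uptake, binding and activation 8 rose and 1 fell, Slc27a5, against 10 and 2 in DMSO, and 5 rose without 72 h replicate 2 or 3. Of 29 measured genes of lipid droplets and glycerol handling 6 rose and 2 fell (in DMSO 2 and 3). Beside Aqp3, the aquaglyceroporin of adipocytes Aqp7 rose by 2.32 ± 0.30, from 7.6, 8.85 and 8.33 to 10.7, 10.5 and 10.53 (adjusted p = 9.6e-05), and by 1.05 in DMSO. The liver aquaglyceroporin Aqp9 read 5.91, 5.76 and 5.94 and then 5.48, 8.7 and 8.35, so its call (1.64 ± 0.51, adjusted p = 0.046) came from replicates 2 and 3, with replicate 1 below every 24 h array. Without replicate 2 its adjusted p was 0.23. Gpam, the first enzyme of triglyceride synthesis, rose by 0.63 (8.53, 8.78 and 8.69, then 9.16, 9.44 and 9.31, adjusted p = 0.0086) while DMSO changed by -0.38 (adjusted p = 0.071). The count of 6 was 3 without 24 h replicate 1 or 3 or 72 h replicate 2 or 3. Over all genes 7.55% rose and 6.63% fell at 100 µM, and 11.9% went each way in DMSO. Of 15 PPARγ targets known from adipocytes 3 were higher and 0 lower at 72 h, namely Aqp7, the lipid droplet protein Plin4 (0.56) and lipoprotein lipase, Lpl, whose 72 h arrays of 3.96, 4.0 and 3.99 were still near the bottom of the scale. Plin4 was lost without any single array of the contrast other than 72 h replicate 1 (limma, adjusted p of at most 0.13). In fatty acid synthesis Scd2 and the NADPH source Me1 rose (Me1 0.94 ± 0.21, adjusted p = 0.0078, against -0.04 in DMSO), and pyruvate kinase Pklr (-1.17) and the carbohydrate-sensing factor Mlxipl (-0.74) fell, out of 19 measured. Of 19 cholesterol genes 3 fell, Tm7sf2 (-0.85), Dhcr7 (-0.48) and the regulator Srebf2 (-0.37), and 0 rose, but 0 were called without 24 h replicate 3 or without 72 h replicate 2 or 3.

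Many genes of proteins secreted into plasma fell. Of 30 carrier proteins and apolipoproteins 18 fell and 0 rose, with a median change of -0.50, while in DMSO 4 fell, 4 rose and the median was 0.01. By the test of the difference itself, the time change was called lower than in DMSO for 5 of the 30 and higher for 0. Over all genes 6.63% fell at 100 µM and 11.9% in DMSO. Apoa2, an apolipoprotein of high-density lipoprotein, read 12.02, 11.81 and 11.77 at 24 h, then 8.99, 9.28 and 9.86 at 72 h (-2.49 ± 0.25, adjusted p = 7.6e-06) and fell in DMSO as well (-2.3). Lcat, which esterifies cholesterol in plasma, went from 9.29, 8.81 and 8.89 to 7.46, 6.32 and 6.37 (-2.28 ± 0.34), with -0.46 in DMSO (adjusted p = 0.36). The corticosteroid carrier Serpina6 changed by -2.33 and the paraoxonase Pon1 by -2.04, and by -3.95 and -1.62 in DMSO. No array at 72 h overlapped those at 24 h for these 4 genes. The 18 falls ranged from 14 to 22 over the alternatives.

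Of 35 coagulation and complement genes 15 fell and 2 rose, with a median of -0.63, against 3, 2 and 0.04 in DMSO. The difference from DMSO was called for 2 of the 35, as lower. Of all genes 6.63% fell and 7.55% rose at 100 µM. The rises numbered 0 with cyclic loess, another scaling, and 0 without any single array of the contrast other than 72 h replicate 1. C6, a complement component, changed by -2.57 ± 0.23 and heparin cofactor II (Serpind1) by -2.12 ± 0.26, and vitronectin (Vtn) read 12.52, 12.28 and 12.29 and then 11.01, 10.01 and 9.97 (-2.03 ± 0.22, adjusted p = 1.8e-05), with -0.11 in DMSO. The difference between these changes was called for Vtn (-1.92, adjusted p = 0.011) and not for Serpind1 (-1.59, adjusted p = 0.067). Here the 72 h arrays did not move alike. The median change of the 35 genes from the 24 h mean was -0.05 in replicate 1, -0.88 in replicate 2 and -0.93 in replicate 3, and without replicate 1 the falls numbered 23. Of 27 acute phase genes 12 fell and 1 rose (median -0.46), against 8 and 1 in DMSO (-0.30). Here the difference from DMSO was called for 6 of the 27, as lower. Serum amyloid P (Apcs) fell by 2.61 ± 0.31 and by 1.32 in DMSO, and Itih4, a heavy chain of the inter-α-trypsin inhibitor family, by 2.0 ± 0.20 (11.97, 11.86 and 11.78, then 10.21, 9.73 and 9.68) with -0.58 in DMSO (adjusted p = 0.053). Median changes for this list were -0.59, -0.86 and -0.96 in the 3 arrays, and those of the carrier proteins -0.21, -0.69 and -0.70.

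**Figure D4:**
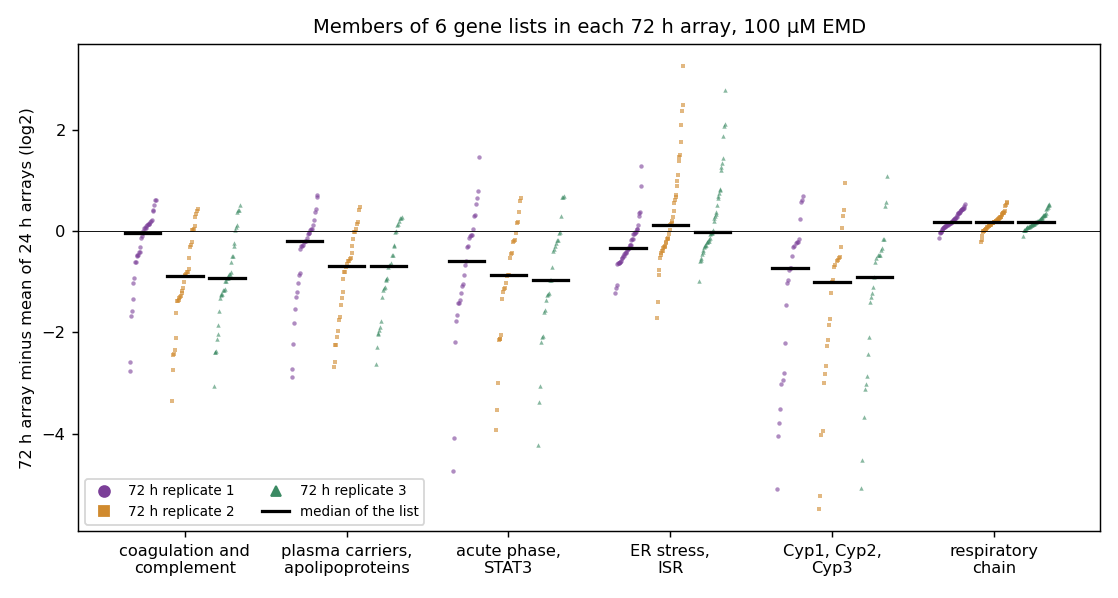
For 6 gene lists, the change of each measured gene on each 72 h array at 100 µM from the mean of the 24 h arrays (log2), with a black bar at the median. The coagulation and complement list has medians of -0.05, -0.88 and -0.93 in replicates 1, 2 and 3, while the Cyp1, Cyp2 and Cyp3 list has -0.74, -1.0 and -0.90.

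The endoplasmic reticulum, where secreted proteins are folded, also had arrays that split. Of 41 genes of ER stress and the integrated stress response 6 rose and 7 fell, and without 72 h replicate 1 there were 15 rises and 8 falls, while leaving out any other array of the contrast gave 2 or 3 rises. Pdia3, a disulfide isomerase, read 10.2, 10.39 and 10.56 and then 11.26, 12.47 and 12.26 (1.61 ± 0.21, adjusted p = 9.3e-05). Sdf2l1, an ER chaperone partner, read 8.19, 8.69 and 8.54 and then 8.32, 10.95 and 10.58 (1.48 ± 0.43, adjusted p = 0.032), so that replicate 1 lay within the 24 h arrays and the others far above them. The change of Sdf2l1 was 0.978 without 72 h replicate 2 and 2.29 without replicate 1, and its call was lost under 7 alternatives (adjusted p of at most 0.17). The list median on the single 72 h arrays was -0.33, 0.11 and -0.03. Chac1, a glutathione-degrading target of the integrated stress response, went the other way, from 8.94, 8.99 and 9.14 to 7.96, 7.31 and 8.03 (-1.25 ± 0.19, adjusted p = 0.0004), with 0.45 in DMSO (adjusted p = 0.1) and a called difference of -1.71 (adjusted p = 0.0082). Among 18 cytosolic chaperones 5 fell and 1 rose: the heat shock protein Hspa1a by 1.53 ± 0.23, its cochaperones Bag3 and Dnajb1 by 0.79 and 0.47, while Hspa4 rose by 1.15 ± 0.12. Of 34 NRF2 targets and antioxidant enzymes 5 rose and 3 fell, with rises of 1.52 for Aldh1a1, 1.18 for glutathione reductase (Gsr) and 0.94 for Me1 and a change of -0.91 for sulfiredoxin (Srxn1), which was -0.548 without 72 h replicate 1 and lost its call under 7 alternatives. Leaving out any array of the contrast other than 72 h replicate 1 gave 3 rises. The counts of these lists stand against 7.55% of all genes called higher and 6.63% called lower.

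Some of the interferon-inducible genes fell. Of 28 interferon-inducible genes 9 fell and 0 rose (median -0.52), and in DMSO 11 fell and 0 rose (-0.74). Isg15, a ubiquitin-like antiviral protein, read 10.99, 9.68 and 8.34 and then 6.74, 5.94 and 6.75 (-3.2 ± 0.63, adjusted p = 0.003). The deubiquitinase Usp18 changed by -2.77, the GTPase Mx2 by -2.92 (9.06, 8.56 and 6.04, then 4.7, 5.23 and 4.97) and the transcription factor Irf7 by -2.44. In these 4 genes the 24 h arrays were ordered alike, with replicate 1 highest and replicate 3 lowest, and the 72 h arrays lay below all of them. Mx2 was no longer called without 24 h replicate 1 (limma, adjusted p = 0.1) or 2 (0.085), or without 72 h replicate 2 (0.054) or 3 (0.059). Other moderation ended its call too (0.057). The chemokine Cxcl9 fell from 10.06, 10.06 and 9.86 to 8.07, 8.0 and 8.03 (-1.96 ± 0.10, adjusted p = 1.8e-08) and Cxcl11 by 1.11, with falls of 2.51 and 0.66 in DMSO. Of 36 chemokine and NF-κB genes 4 fell and 1 rose, the rise being Nfkbiz (0.93 ± 0.23), an inhibitor-like NF-κB partner. Without 72 h replicate 1, 7 of the 36 fell, and 12 fell with array weights. Among all genes 6.63% fell and 7.55% rose at 100 µM, and 11.9% fell in DMSO.

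No change of the receptors themselves passed the test. Ppara read 6.46, 6.58 and 6.35 at 24 h, then 6.37, 6.54 and 6.34 at 72 h (-0.05, adjusted p = 0.91), Ppard changed by -0.12 (adjusted p = 0.68), and Pparg read 5.33, 5.81 and 5.51 and then 5.39, 6.19 and 6.03 (0.32, adjusted p = 0.44). All 3 had overlapping times. Among nuclear receptors and their coregulators (33 measured) 5 rose and 0 fell, and they included the orphan receptor Esrrg (0.96 ± 0.22), the bile acid receptor Nr1h4 (7.93, 8.31 and 8.04, then 8.87, 8.93 and 9.1, or 0.87 ± 0.15), Nr2f2 (0.78 ± 0.16) and the coactivator Ppargc1b (0.66 ± 0.19). When the probe sets of each gene were averaged, 2 rose. Ppargc1b was lost without any 1 of the 24 h arrays and without 72 h replicate 3 (limma, adjusted p of at most 0.16). Among all genes 7.55% rose and 6.63% fell. Of 19 liver-enriched transcription factors 3 rose and 4 fell. Hnf4a, a master regulator of hepatocytes, fell from 10.67, 10.83 and 10.97 to 10.31, 10.34 and 10.28 (-0.51 ± 0.12, adjusted p = 0.012), as it did in DMSO (-0.62). Cebpd fell by 1.0, while Cebpb (0.53) and Foxa3 (0.71) rose. The falls numbered 7 without 72 h replicate 1. The rises numbered 0 without 72 h replicate 2, and 1 without 24 h replicate 1 or 3 or 72 h replicate 3. Foxa3 was lost under 4 alternatives (limma, adjusted p of at most 0.13) and Cebpb under 2 (at most 0.059).

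Other metabolic lists held changes in both directions. Of 54 genes of the urea cycle and amino acid breakdown 6 rose and 6 fell, against 16 and 5 in DMSO. Over all genes 7.55% were called higher and 6.63% lower at 100 µM, and 11.9% each way in DMSO. Otc, of the urea cycle, read 6.7, 6.3 and 6.61 and then 5.75, 4.76 and 4.95 (-1.38 ± 0.32, adjusted p = 0.0087), Haao of tryptophan breakdown fell by 1.13, and the aminotransferase Got1 rose by 1.22 ± 0.14. Without 72 h replicate 1 the falls were 11, and without 72 h replicate 2 they were 2. Of 31 conjugating enzymes 4 rose and 1 fell (in DMSO 11 and 3): Gstt2 by 0.86, Gstt1 by 0.77 and Nat2 by 0.39 were among the rises, and Gstk1 of peroxisomes and mitochondria fell by 1.52. Of 24 hepatic transporters 1 rose, the basolateral export pump Abcc3 (0.56), and 3 fell, Slco1a4 (-1.52), Slc13a3 (-0.56) and the glucose transporter Slc2a2 (-0.61), the last from 10.81, 10.67 and 11.03 to 10.14, 10.28 and 10.25. Among 14 bile acid synthesis genes Nr1h4, Hsd3b7 (0.83) and Akr1c14 (0.60) rose and Slc27a5 fell. Of 32 genes of glycolysis and gluconeogenesis 2 rose, the pyruvate dehydrogenase kinase Pdk3 (1.19 ± 0.13) and muscle phosphofructokinase Pfkm (0.62), and 2 fell, Pklr and Slc2a2. Without 72 h replicate 1, the falls were 4 in this last list, 4 among the conjugating enzymes and 5 among the transporters, and 3 transporters rose. Without any other single array of the contrast 0 transporters rose. The conjugating enzymes had 2 rises without 24 h replicate 1, 2 or 3 or 72 h replicate 3. Abcc3 and Akr1c14 were each lost under 5 alternatives (limma, adjusted p of at most 0.15). Nat2 was lost when any single array of the contrast was left out (up to 0.2).

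Subunits of the respiratory chain and ATP synthase changed by small amounts. Of 50 measured, 12 rose and 0 fell with a median of 0.18, and the same counts were found in DMSO with a median of 0.08. Cox6a1, of cytochrome oxidase, read 11.47, 11.44 and 11.38 and then 11.96, 12.01 and 11.95 (0.54 ± 0.07, adjusted p = 5.8e-05), Ndufb8 of complex I rose by 0.49, and Cox5b and Cox7b by 0.47 and 0.43. The median on the 72 h arrays was 0.19, 0.17 and 0.17. The number of rises ranged from 5 to 22 with the setting, at 7 without 24 h replicate 3. Of 24 mitochondrial carriers 4 rose and 2 fell. The uncoupling protein Ucp3 rose from 5.35, 5.43 and 5.3 to 6.08, 5.86 and 6.16 (0.68 ± 0.11, adjusted p = 0.00076) and fell in DMSO (-0.37, adjusted p = 0.025), a called difference of 1.05 (adjusted p = 0.0048), and the citrate carrier Slc25a1 fell by 0.69. Of 33 proteasome subunits Psma3 (0.53) and Psmb1 (0.25) rose and Psmd1 (-1.01) fell. Of 23 hypoxia-inducible genes 2 rose and 2 fell at 100 µM, against 1 and 12 in DMSO. The share of all genes called lower was 6.63% at 100 µM and 11.9% in DMSO. For 1 of the 23 the difference from DMSO was called, as higher. The collagen hydroxylase P4ha1 fell by 1.0 and Vegfa by 0.61, while the lipid droplet protein Hilpda rose by 0.54 and Car12 by 0.39. Hilpda was lost under 4 alternatives (limma, adjusted p of at most 0.1) and Car12 under 6 (at most 0.13).

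Genes of the cytoskeleton and matrix rose in part. Of 51 genes of actin, TGFβ and epithelial-mesenchymal transition 7 rose and 3 fell (in DMSO 12 and 4). Shares over all genes were 7.55% higher and 6.63% lower at 100 µM, and 11.9% each way in DMSO. The smooth muscle protein calponin (Cnn1) rose from 4.2, 4.14 and 4.23 to 5.84, 5.32 and 5.11 (1.24 ± 0.17), Ccn1 by 1.09, Tpm2 by 1.08 and Anxa1 by 0.88. Replicate 1 was the highest of the 72 h arrays for Cnn1, Ccn1 and Tpm2, and 4 genes of the list rose without 24 h replicate 2 or 72 h replicate 2. Of 42 matrix and protease genes 5 rose and 1 fell. The protease inhibitor Serpine2 went from 8.21, 9.02 and 8.86 to 10.77, 11.03 and 11.03 (2.25 ± 0.23, adjusted p = 9.9e-06), and the others included Col5a2 (1.65), Lox (1.6) and Timp2 (1.59). Lox and Timp2 were lost without 72 h replicate 1 (adjusted p = 0.076 and 0.052), and 2 genes of the list rose without 24 h replicate 2 and 3 without 24 h replicate 3. Tagln, a smooth muscle marker, read 9.21, 8.17 and 9.23 and then 11.14, 9.88 and 9.63 and did not pass the test (1.35, adjusted p = 0.23). Of 27 junction genes 2 rose and 5 fell, with changes of 0.62 for Cldn1 and of -1.29, -0.71 and -0.51 for Cldn2, Gjb2 and Cldn14. The falls were 2 without 24 h replicate 3 and 3 without 24 h replicate 1 or 72 h replicate 3.

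The growth and signalling lists had small counts, which moved by a few genes when an array was left out. The share called was 4.35% in the cell cycle list and 16% to 26.7% in the others, against 2015 of 14217 genes over all. By direction, 7.55% of all genes rose and 6.63% fell at 100 µM, and 11.9% rose and 11.9% fell in DMSO. Of 46 cell cycle and replication genes 1 rose, thymidylate synthase (Tyms, 0.71), and 1 fell, Myc, from 9.8, 9.87 and 9.9 to 9.14, 9.31 and 8.96 (-0.72 ± 0.12, adjusted p = 0.0011). The rises were 3 without 72 h replicate 1. Of 25 p53 and apoptosis genes 2 rose (Gadd45g by 0.65 and Casp8 by 0.43) and 2 fell (Sesn2 and Bid, with changes of -0.50 and -0.35). Casp8 was lost under 6 alternatives (limma, adjusted p of at most 0.17) and Bid under 8 (at most 0.18). Of 29 immediate early genes 1 rose, Ier2 (0.66), and 4 fell, among them Myc, Atf3 (-0.64) and Fosl2 (-0.54), against 8 and 2 in DMSO. In the circadian clock Tef (0.72) and Dbp (0.47) rose and Rora (-0.49) fell, out of 17. Dbp was lost under 5 alternatives (limma, adjusted p of at most 0.083). Of 30 hormone receptors and genes of the IGF axis 2 rose and 6 fell. The receptor of hepatocyte growth factor, Met, rose by 1.35 ± 0.15, and angiotensinogen (Agt) fell from 12.32, 12.3 and 12.22 to 11.01, 10.77 and 10.84 (-1.4 ± 0.12, adjusted p = 1.7e-06). The glucagon receptor Gcgr changed by -0.99 and Npy by -1.26, and both were lost when 24 h replicate 1 was left out (limma, adjusted p = 0.082 and 0.16). Other left-out arrays ended these calls too. Gcgr was lost under 5 alternatives in all, and Npy also with array weights (0.087).

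**Figure D5:**
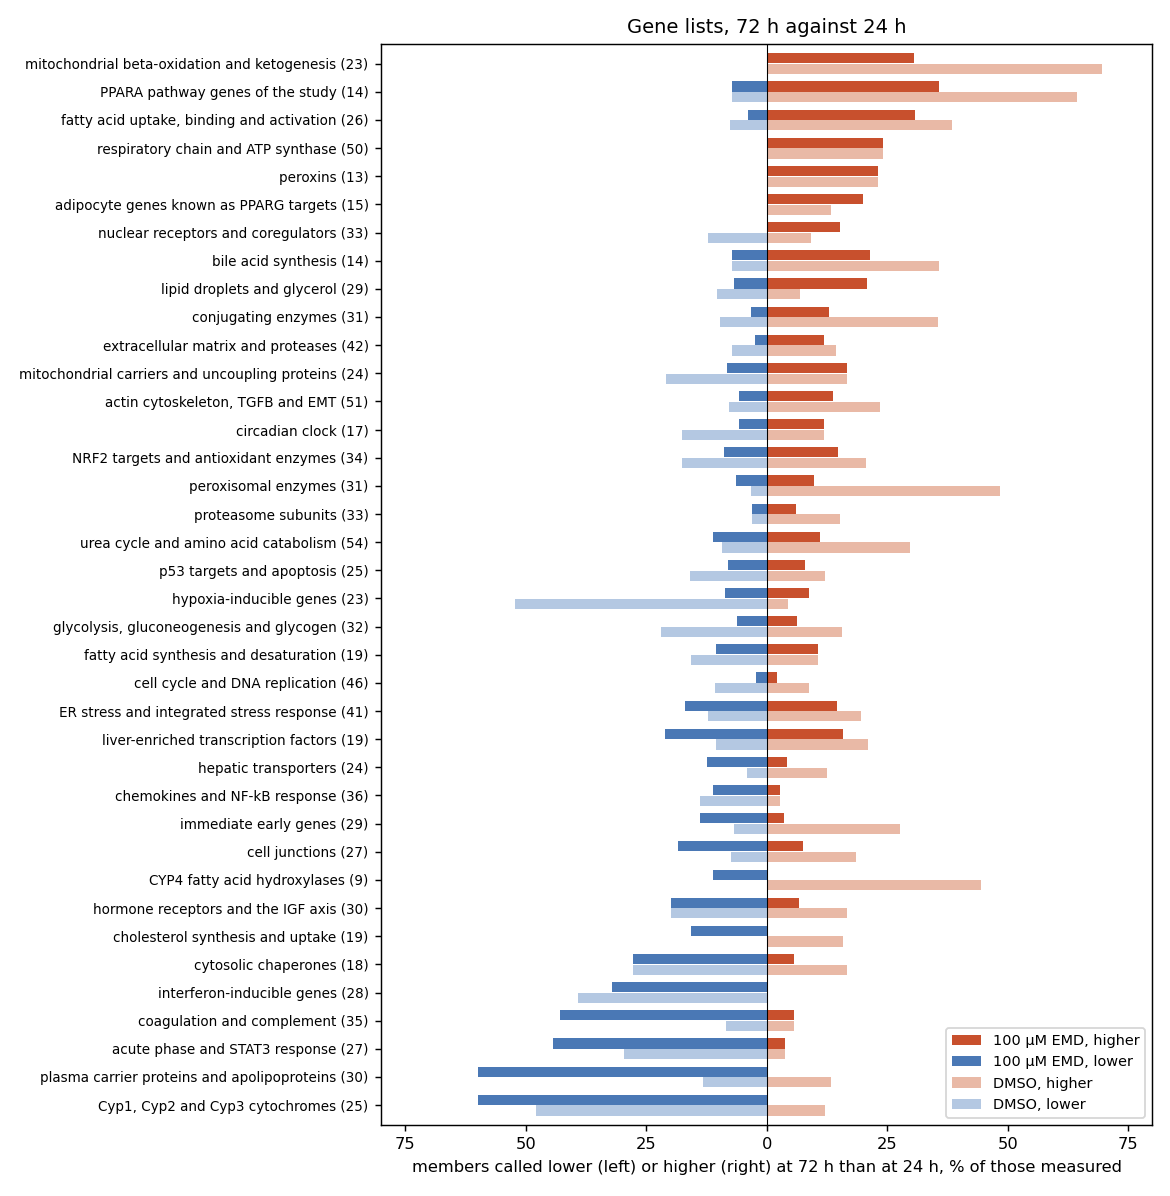
For each of 38 gene lists, the percent of measured members (number in parentheses) called higher, drawn to the right, and called lower, drawn to the left, from 24 h to 72 h at 100 µM EMD and in DMSO. The Cyp1, Cyp2 and Cyp3 list and the carrier protein list reach furthest to the lower side at 100 µM, with 15 of 25 and 18 of 30 members, and the β-oxidation and peroxisomal lists reach further to the higher side in DMSO than at 100 µM, where over all genes 11.9% were called higher in DMSO and 7.55% at 100 µM. The bars show calls within each group and not the test of the difference between the groups.

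The test of the difference in time change between 100 µM and DMSO called 48 genes higher and 96 lower. In the higher class, 21 genes rose at 100 µM with no call in DMSO, 17 had no call at 100 µM and fell in DMSO, 5 rose at 100 µM and fell in DMSO, 3 rose in both and 2 fell in both. In the lower class, 47 had no call at 100 µM and rose in DMSO, 31 fell at 100 µM with no call in DMSO, 8 rose in both, 7 fell at 100 µM and rose in DMSO and 3 fell in both. The largest differences upward were those of Scd2 (4.69 ± 0.57, adjusted p = 0.0015), Aqp3 (3.53 ± 0.59, adjusted p = 0.011), Fabp3 (3.27 ± 0.44, adjusted p = 0.0028), Lrrc39 (2.84 ± 0.40, adjusted p = 0.0039) and Soat1 (2.19 ± 0.46, adjusted p = 0.04). The sixth was Hmox1, the heme oxygenase induced by oxidative stress, which read 11.56, 11.05 and 10.6 and then 11.29, 12.09 and 11.4 at 100 µM (0.52, adjusted p = 0.29) and 11.68, 11.48 and 12.37 and then 10.49, 9.87 and 10.22 in DMSO. Its difference of 2.17 ± 0.42 (adjusted p = 0.026) thus came with a fall in the solvent.

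The largest differences downward were those of Il1r2 (-3.08 ± 0.45, adjusted p = 0.0042), Hrg (-3.05 ± 0.52, adjusted p = 0.013), Cyp4a3 (-2.82 ± 0.31, adjusted p = 0.00091), Cyp2c11, Lhfpl6 and Bhmt. Cyp2c11, the main male-specific cytochrome of rat liver, read 10.37, 10.15 and 10.65 and then 8.17, 8.24 and 9.49 at 100 µM, a fall of 1.76 ± 0.35, and 11.16, 11.1 and 11.01 and then 11.56, 12.53 and 12.24 in DMSO. The difference was -2.78 ± 0.50 (adjusted p = 0.018), and the 72 h arrays of the 2 groups did not overlap. Bhmt, which remethylates homocysteine, read 9.14, 9.23 and 9.7 and then 7.97, 7.17 and 8.3, a fall of 1.55 ± 0.40, with 1.03 in DMSO (adjusted p = 0.074) and a difference of -2.58 ± 0.56 (adjusted p = 0.046). Lhfpl6 rose at 100 µM (4.01, 3.72 and 4.05, then 6.97, 5.42 and 5.35) but rose further in DMSO (4.58), a difference of -2.59 ± 0.52 (adjusted p = 0.03), and its other probe set changed by -0.22. The differences for Cd36 (-2.14 ± 0.46, adjusted p = 0.044), Ehhadh (-1.85 ± 0.37, adjusted p = 0.029) and Cpt1a (-1.39 ± 0.30, adjusted p = 0.042) were called as well.

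These calls leaned on single arrays to different degrees. The differences of Scd2, Aqp3, Fabp3, Lrrc39, Il1r2 and Cyp4a3 from DMSO were called under all alternatives tried. Hrg was lost only without DMSO 72 h replicate 2 (adjusted p = 0.051), and Soat1, Bhmt, Cd36, Lhfpl6, Ehhadh, Hmox1, Cpt1a and Cyp2c11 were lost under 4 to 12 of 19 alternatives, with adjusted p of at most 0.17. The number of probe sets called different from DMSO was 800 without 100 µM 72 h replicate 1 and 57 without DMSO 72 h replicate 2, against 215 with all arrays. Of the promoters of these genes, 5 of 38 in the higher and 12 of 77 in the lower class held AGGTCA (13.2% and 15.6%), against 11.3% of all promoters.

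The time course at 100 µM was tested against that at 30 µM too. Of 31042 probe sets 2 (0.00644%) were called different, 1804 having an unadjusted p below 0.05, and a p that misses the threshold does not show that the doses acted alike. Without 100 µM 72 h replicate 1 the number was 179. The gene called was Cd302, a C-type lectin receptor. It read 9.85, 9.35 and 9.63 at 24 h, then 8.42, 8.14 and 8.05 at 72 h at 100 µM, a fall of 1.4 ± 0.15 (adjusted p = 1.5e-05). At 30 µM it read 9.82, 9.68 and 10.02 and then 9.95, 10.08 and 9.89, a change of 0.13 (adjusted p = 0.66), and in DMSO it changed by 0.29 (adjusted p = 0.19). The 24 h arrays of both doses were close together and the 72 h arrays were not, with a difference of -1.54 ± 0.21 from 30 µM (adjusted p = 0.03) and of -1.69 ± 0.21 from DMSO (adjusted p = 0.0022). The difference from 30 µM was lost under 12 of 19 alternatives, with an adjusted p of up to 0.17. The changes of other named genes at 30 µM stand beside those at 100 µM without a call: they were 3.34 for Scd2, 4.41 for Aqp3, 1.69 for Soat1, 3.62 for Fabp3, 3.49 for Lrrc39, 2.52 for Cd36, -4.23 for Il1r2 and -1.17 for Hrg, on the log2 scale.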

How the data were processed

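Primary hepatocytes of the rat were profiled in 18 cultures on Affymetrix arrays, and the sample labels gave 6 groups of 3. The deposited values are log2 estimates that the authors made with RMA, which corrects background, forces equal distributions on the arrays and summarises each probe set, so that a shift shared by most genes is lost and low values are compressed. The version of the program was not stated in these sources. Of 31099 probe sets, 57 controls were left out. Gene names came from GEO's platform annotation: 20826 probe sets had 1 symbol, 436 several and 9780 none, and 20758 matched the RefSeq table of GRCr8. A gene was read through its probe set with the highest mean.

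All arrays were fitted in limma 3.58.1 (R 4.3.3; lmFit and eBayes, 6 group means), two-sided, with Benjamini-Hochberg adjustment over 31042 probe sets and a threshold of 0.05; the fit was tested on simulated data. SE is the moderated standard error. Tables and figures were made with Python 3.11.15, pandas 2.3.3 and matplotlib 3.10.9. Named genes are the 12 largest rises and falls among called genes without overlap of the times, the 6 largest differences from DMSO and from 30 µM in each direction, up to 4 called members per list with the largest change, all genes of the PPARα list that the study drew up, Ppara, Ppard, Pparg and the cell type markers. The members, the 38 pathway and 7 marker lists and the tests were chosen with earlier results of these data known. No set test was made. The number of arrays limits the precision: the median SE of a change was 0.116. Alternatives were other scaling, other moderation, fits of fewer arrays or probe sets, array weights, a replicate block and each array left out.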

Additional observations from a re-analysis of the deposited data

Results flagged for a closer look

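The results here stand out because the change from 24 h to 72 h at 100 µM differed from the change in another group by a test of the difference itself. Against DMSO 215 probe sets did so and against 30 µM 2 did. The largest differences from DMSO (log2, limma) were 4.69 for Scd2, 3.53 for Aqp3, 3.27 for Fabp3, 2.84 for Lrrc39, 2.19 for Soat1 and 2.17 for Hmox1 on the higher side. On the lower side they were -3.08 for Il1r2, -3.05 for Hrg, -2.82 for Cyp4a3, -2.78 for Cyp2c11, -2.59 for Lhfpl6 and -2.58 for Bhmt. Among genes of the study's PPARα list, the differences were -2.14 for Cd36, -1.85 for Ehhadh and -1.39 for Cpt1a. Cd302 differed from DMSO by -1.69 and from 30 µM by -1.54. Dixon's test for an outlying sample was not run on groups of 3 arrays, so no gene is given here for an outlying array.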

How the results depend on the processing

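The count of 3843 probe sets called at 100 µM was 6849 (3565 higher and 3284 lower) with array weights and 2315 (1347 and 968) with the 6 arrays of the contrast alone, and leaving out an array gave 2285 to 4453 (higher 1271 to 2526, lower 1014 to 1927); 400 to 577 of them were at least 2-fold. The share called higher stayed between 52.1% and 58.2%, against 54.7%. Differences from DMSO numbered 534 with a replicate block, 1090 with array weights, 76 with only the arrays of the contrast and 57 to 800 with an array left out. Differences from 30 µM numbered 1, 45 and 0 in the same order, 0 without dim probe sets and 0 to 179 with an array left out. Probe sets called in DMSO numbered 7076 with array weights and 3997 with its own arrays alone. Same-numbered arrays of 24 h and 72 h at 100 µM had correlated deviations of 0.255, 0.312 and 0.074, and different numbers a median of -0.151. Of the 6 arrays 5 were most alike their own number. The main fit did not take the numbers as pairs, since no label says so and not every pair passed 0.1. That mark is not a test of pairing, so the counts of the main fit may leave out a real pairing. Over all groups 39 of 45 same-numbered pairs passed 0.1, and the lowest was 0.005. The study's methods say that the cells of each animal received all treatments, but not that a number marks an animal. With the replicate as a block 5186 probe sets were called at 100 µM, the falls among chemokine and NF-κB genes numbered 13 and those among interferon-inducible genes 14, and Cd302 was not called different from 30 µM (limma, adjusted p = 0.053). Of the named genes' time changes, 1898 of 2146 values kept their call, 248 lost it and 0 reversed. Of the differences from DMSO 229 of 302 kept it and 73 lost it, and from 30 µM 7 of 19 kept it and 12 lost it. List counts stayed within 1.5-fold in 979 of 1260 values. The causes were not tested. The 3 arrays per group limit all of these results, and RMA gives no detection call.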
